A study of Mus musculus with 8 samples.

Results

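AP-1 is a family of transcription factors that bind DNA as dimers, and 10 of its genes were followed here in granulocyte-macrophage progenitors (GMP), the bone marrow cells that give rise to granulocytes and monocytes. The genes are Jun, Junb and Jund of the Jun group, Fos, Fosb, Fosl1 and Fosl2 of the Fos group, and Batf, Batf2 and Batf3 of the Batf group. They were chosen by gene symbol, and 9 of the 10 had a probe on the array, 1 probe each, out of 16593 genes on the array in all. Fosl2 had no probe under that symbol. The DKO group held 4 samples of GMP from mice without Ssb1 (gene Nabp2) and Ssb2 (gene Nabp1), a pair of related proteins that bind single-stranded DNA, and the control group held 4 samples of GMP from WT mice. All mice were female C57BL/6, and the GMP were lineagelow and Sca-1- cells that carried c-Kit with CD34high and CD16/32high staining. No age, Cre driver or pooling of animals is given in the sources used here. Each sample was hybridised in 1 colour to an Illumina MouseRef-8 v2.0 BeadArray. Nothing in the labels ties a sample to its own mouse, so the p-values measure the spread among the samples, part or all of which could be technical.

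AP-1 factors share a basic region that touches DNA and a leucine zipper that joins the partners of a dimer. Jun proteins pair with each other or with Fos proteins, while Fos proteins need a Jun partner to bind DNA. Batf factors also pair with Jun proteins, lack a strong activation domain of their own, and bind joint sites together with Irf4 or Irf8. Fos, Fosb, Jun and Junb are immediate-early genes, which MAP kinase signalling switches on within minutes. In mouse myeloid cells, Jun and Fos have been tied to monocyte differentiation, loss of Junb leads to an expansion of granulocytes, and Batf rises after DNA damage in haematopoietic stem cells.

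The promoters of the 4 members that differed between the groups are shown because Junb and Batf moved one way and Fos and Jun the other. Each window holds 250 bases before and 50 bases from the annotated start of the gene, 5′ to 3′ on the gene's strand, from RefSeq, build GRCm38.p6. Capitals mark an AP-1 site variant (TGACATCA), the first bases of the CRE (TGACG, which the longer CRE also holds), the TATA box (TATAAA) and the CCAAT box, each searched on both strands. These 4 motifs were added after the windows had been seen.
Junb, chr8:84978699-84978998, minus strand: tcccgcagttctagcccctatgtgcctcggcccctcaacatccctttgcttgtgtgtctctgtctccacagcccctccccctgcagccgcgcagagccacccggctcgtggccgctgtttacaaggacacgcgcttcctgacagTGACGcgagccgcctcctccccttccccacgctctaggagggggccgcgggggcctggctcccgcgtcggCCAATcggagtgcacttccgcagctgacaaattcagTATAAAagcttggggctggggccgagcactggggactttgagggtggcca
Batf, chr12:85686470-85686769, plus strand: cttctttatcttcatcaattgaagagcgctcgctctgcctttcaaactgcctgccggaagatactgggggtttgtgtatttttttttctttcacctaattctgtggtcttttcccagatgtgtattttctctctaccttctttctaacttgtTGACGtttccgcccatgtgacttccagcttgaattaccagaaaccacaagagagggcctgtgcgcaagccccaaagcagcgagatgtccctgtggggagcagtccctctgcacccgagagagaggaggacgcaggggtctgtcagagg
Fos, chr12:85473640-85473939, plus strand: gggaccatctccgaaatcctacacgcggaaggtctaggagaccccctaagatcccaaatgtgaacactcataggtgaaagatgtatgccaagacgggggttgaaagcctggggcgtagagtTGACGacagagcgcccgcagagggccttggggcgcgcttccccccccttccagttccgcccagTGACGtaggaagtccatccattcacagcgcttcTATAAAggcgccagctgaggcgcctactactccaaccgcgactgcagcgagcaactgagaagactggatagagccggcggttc
Jun, chr4:95052173-95052472, minus strand: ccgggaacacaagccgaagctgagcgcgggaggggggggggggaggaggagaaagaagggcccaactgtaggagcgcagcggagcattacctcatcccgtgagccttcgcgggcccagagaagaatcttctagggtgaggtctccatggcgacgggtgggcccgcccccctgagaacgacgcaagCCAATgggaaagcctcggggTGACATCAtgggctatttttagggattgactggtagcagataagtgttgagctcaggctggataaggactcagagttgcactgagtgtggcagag
The Fos window held TGACG at -129 to -125 and at -66 to -62 from the start, and TATAAA at -33 to -28. The Junb window held TGACG at -106 to -102, CCAAT at -36 to -32 and TATAAA at 1 to 6. The Batf window held TGACG at -98 to -94. The Jun window held CCAAT at -65 to -61 and TGACATCA, a variant of the AP-1 site, at -45 to -38. Of all 32851 promoter windows of this length in the table, 20.8% held TGACG, 3.62% the AP-1 variant, 13.6% the TATA box and 37.4% the CCAAT box. Windows were at hand for 8 of the 10 members. TGACG was found in 4 of the 8, which are Junb, Batf, Fos and, at -60 to -56, Fosb. None of the 8 windows held the AP-1 site TGANTCA (7.81% of all windows), the CRE TGACGTCA (1.79%) or the CArG box (1.63%). Sites outside these windows, such as more than 250 bases before the start, were not searched. The core of the interferon response element, GAAA on both sides of 2 free bases (3.44%), was found in 1 of the 8, Fosl2, and the GAS motif, TTC and GAA around 3 free bases (8.3%), in 1, Batf3.

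Of the 9 members with a probe, 6 passed the filter on dim probes, which keeps a probe detected (p under 0.05) on 4 or more of the 8 arrays. Among these 6, Junb and Batf rose in DKO GMP, Fos and Jun fell, and Jund and Fosb did not pass the threshold of an adjusted p of 0.05. Of all 7604 tested genes, 10.1% rose and 14.3% fell by the same rule, 24.3% in either direction. With arrays aligned by medians, where 1 member rose and 2 fell, these shares were 1.39% and 23.6%. The median log2 difference, DKO minus control, was -0.12 over the 6 members and -0.03 over all tested genes. Fosl1, Batf2 and Batf3 were too dim to be tested. All levels below are background-corrected, quantile-normalized log2 intensities, and a probe's level is not comparable with that of another probe.

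**Figure D1:**
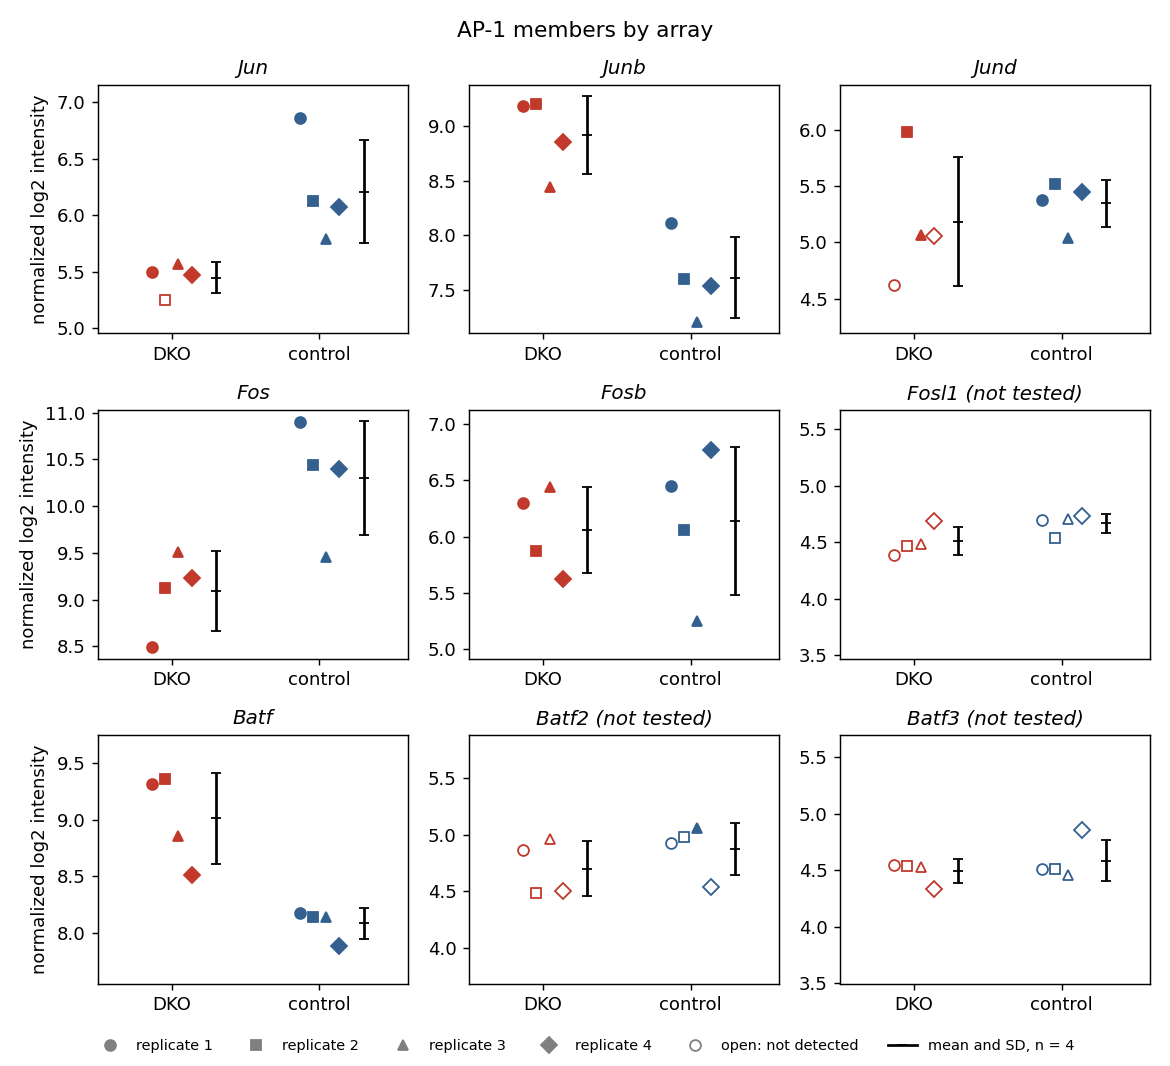
Normalized log2 intensity (vertical axes) of the 9 members with a probe, on the 4 DKO arrays (red, left) and the 4 control arrays (blue, right), with marker shapes for replicates 1 to 4, open markers where the probe was not detected, and black bars for the mean and SD (n = 4). Junb and Batf lie higher on every DKO array than on any control array, Jun lies lower on every DKO array, and Fos overlaps between DKO 3 at 9.51 and control 3 at 9.46.

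In the Jun group, Junb, a partner of Fos proteins that is often a weaker activator than Jun, rose. Junb (probe ILMN_1220034) read 9.18, 9.20, 8.44 and 8.85 on the DKO arrays, against 8.11, 7.60, 7.21 and 7.54 on the control arrays. The lowest DKO array lay above the highest control array, as for 12.9% of all tested genes in this direction. The means were 8.92 ± 0.35 in DKO and 7.62 ± 0.37 in control (SD, n = 4 each), and Junb was 2.47-fold higher (log2 difference 1.30 with an SE of 0.22, adjusted p = 0.0024 by limma). Only 1.1% of tested genes had a larger rise. The raw Junb intensities were 326.1, 618.1, 434.7 and 612.7 on the DKO arrays, against 398.4, 407.2, 301.1 and 311.1 on the control arrays. Before normalization the groups thus overlapped, through DKO 1, whose mean raw intensity over all probes was the lowest of the 8 arrays at 380.2. When the arrays were aligned by medians, the log2 difference of Junb was 0.76 (adjusted p = 0.0409), and the median of all tested genes was -0.43. Junb lay 1.20 above that median, and 1.33 above it with quantile normalization.

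Jun, the founding member of the group and a strong activator, fell. Jun (ILMN_2646625) read 5.50, 5.25, 5.57 and 5.47 in DKO, against 6.86, 6.13, 5.79 and 6.07 in control. All DKO arrays lay below all control arrays, as for 16.5% of tested genes in this direction, but the gap between DKO 3 and control 3 was small. Jun averaged 5.45 ± 0.14 in DKO and 6.21 ± 0.46 in control, 1.70-fold lower in DKO (log2 difference -0.76 with an SE of 0.21, adjusted p = 0.0246 by limma). The probe was dim, with a mean raw intensity of 147.6 in DKO and 205 in control, and it was detected on 3 of the 4 DKO arrays and on all 4 control arrays. The call was lost with no background correction (log2 difference -0.26, adjusted p = 0.0689) and with the authors' processed values (log2 difference -0.24, adjusted p = 0.079), and with normexp without controls it was kept at -0.41 (adjusted p = 0.0399). It was also lost without DKO 2 (adjusted p = 0.0532) and without control 2 (adjusted p = 0.0562).

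Jund, a Jun protein made steadily in most resting cells, did not pass. Jund (ILMN_2682788) read 4.62, 5.98, 5.07 and 5.06 in DKO, against 5.38, 5.52, 5.04 and 5.45 in control. The DKO arrays held both the lowest and the highest value, and the probe was detected on 2 DKO and 4 control arrays. The log2 difference was -0.16 with a 95% interval of -0.72 to 0.39 (limma adjusted p = 0.671), so a change in either direction within that interval was not detectable here.

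In the Fos group, Fos, which forms the classic AP-1 dimer with Jun, fell. Fos (ILMN_2750515) read 8.49, 9.12, 9.51 and 9.23 in DKO, against 10.90, 10.44, 9.46 and 10.40 in control. Of the control arrays, 3 lay well above every DKO array, and control 3 lay just below DKO 3, so the groups overlapped. The means were 9.09 ± 0.43 in DKO and 10.30 ± 0.61 in control (SD, n = 4 each), and Fos was 2.32-fold lower (log2 difference -1.21 with an SE of 0.30, adjusted p = 0.0156 by limma). Raw intensities did not overlap, at 238.6, 586.3, 785.4 and 763.8 in DKO, against 2028.8, 2076.2, 941.6 and 1557.4 in control. Mean raw intensities over all probes were 380.2 to 621.9 in DKO and 604.8 to 736.1 in control. The share of all genes that lay apart on raw values was not worked out. Only 2.42% of tested genes had a larger fall. Fos passed the threshold when any 1 array was left out, with adjusted p from 0.00448 to 0.0479, and the log2 difference without control 3 was -1.49. Without DKO 1 and DKO 2 together, the arrays with the fewest detected probes, it was -0.93 and no longer passed (adjusted p = 0.074).

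Fosb, an immediate-early relative of Fos, showed no difference that passed. Fosb (ILMN_2778279) read 6.30, 5.87, 6.44 and 5.62 in DKO, against 6.45, 6.06, 5.25 and 6.77 in control. The control arrays spanned the whole DKO range, with control 3 lowest and control 4 highest. The log2 difference was -0.08, with a 95% interval of -0.75 to 0.59 (limma adjusted p = 0.878). Fosl1, which encodes the AP-1 protein Fra-1, was detected on 0 of the 8 arrays, and its mean raw intensity was 123.4 in DKO and 139.5 in control. Its probe (ILMN_2649550) read 4.39, 4.47, 4.48 and 4.69 in DKO, against 4.70, 4.54, 4.71 and 4.73 in control, not above background in either group.

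In the Batf group, Batf, known best for its part in T cell and dendritic cell programs, rose. Batf (ILMN_2761900) read 9.32, 9.36, 8.86 and 8.51 in DKO, against 8.17, 8.14, 8.14 and 7.88 in control. The normalized groups did not overlap, as for 12.9% of tested genes in this direction. The control arrays lay close together while DKO 1 and DKO 2 lay highest. Raw Batf intensities did overlap, at 352.9, 674.4, 544.9 and 512.3 in DKO, against 409.4, 537, 457.8 and 366.2 in control. Batf averaged 9.01 ± 0.40 in DKO and 8.08 ± 0.14 in control, 1.90-fold higher in DKO (log2 difference 0.93 with an SE of 0.19, adjusted p = 0.00673 by limma). A larger rise was found in 2.59% of tested genes. Without DKO 1 and DKO 2, the log2 difference was 0.60 (adjusted p = 0.0281), over 1.5 times smaller. With arrays aligned by medians it was 0.41 and no longer passed (adjusted p = 0.264), while relative to the median of all genes Batf was 0.84 higher in that setting.

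Batf2, an interferon-induced relative, was detected on 0 DKO arrays and 1 control array, and Batf3, which mouse cross-presenting dendritic cells need to develop, on 0 of the 8 arrays. Batf2 (ILMN_1230143) had mean raw intensities of 127.8 in DKO and 146.7 in control, and Batf3 (ILMN_2930552) of 121.7 in DKO and 135.9 in control. Both sat near background in both groups. When dim probes were kept in the fit, Fosl1 differed by -0.16, Batf2 by -0.18 and Batf3 by -0.09 on the log2 scale, with limma adjusted p of 0.371, 0.623 and 0.723.

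**Figure D2:**
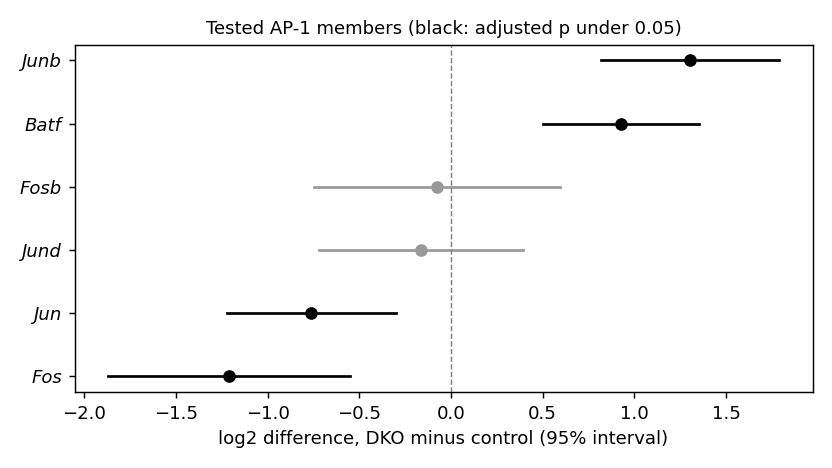
Log2 difference, DKO minus control (horizontal axis), of the 6 tested members with 95% intervals from the limma fit (n = 4 per group), black where the adjusted p was under 0.05 and grey otherwise. The intervals of Junb and Batf lie above 0, those of Fos and Jun below 0, and those of Fosb and Jund span it.

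Of the factors that Batf binds DNA with, Irf8 could be tested and fell. Irf8 read 6.39, 8.07, 7.65 and 6.39 on the DKO arrays, against 10.81, 10.97, 10.86 and 10.62 on the control arrays (log2 difference -3.69 with an SE of 0.35, adjusted p = 0.000112 by limma). Irf4 was detected on 0 of the 8 arrays. So after normalization the DKO arrays carried more Batf signal and less Irf8 signal than the control arrays, without overlap in either. Of all tested genes, 12.9% lay apart in the direction of Batf and 16.5% in that of Irf8. The raw Batf intensities overlapped.

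Among 29 listed bZIP factors outside the Jun, Fos and Batf groups and C/EBP, 25 were on the array and 19 were tested. Of these, 3 rose, 3 fell and 13 did not pass, with a median log2 difference of 0.04. Atf5, an activator in amino acid and mitochondrial stress, rose 2.88-fold, with 10.61, 10.09, 10.18 and 10.56 in DKO, against 8.60, 8.78, 8.71 and 9.25 in control (log2 difference 1.53 with an SE of 0.18, adjusted p = 0.000339 by limma). Dbp, a clock-controlled factor, fell 2.53-fold (log2 difference -1.34, adjusted p = 0.001). Nfe2, an activator in erythroid cells and megakaryocytes, fell 1.67-fold (log2 difference -0.74, adjusted p = 0.00286). Jdp2, a repressor that pairs with Jun proteins, differed by 0.52 and did not pass (adjusted p = 0.0531). Without control 2 the number that rose was 1. Atf3, a stress-induced partner of Jun, was detected on 0 of the 8 arrays.

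Upstream of AP-1, the MAP kinase genes went both ways. Of 23 listed, 16 were on the array and 12 tested, of which 2 rose, 2 fell and 8 did not pass (median log2 difference -0.18). Rps6ka3, which encodes the ERK-activated kinase Rsk2, read 8.61, 8.07, 8.72 and 8.57 in DKO, against 6.48, 6.39, 6.58 and 6.17 in control. It was 4.26-fold higher (log2 difference 2.09 with an SE of 0.17, adjusted p = 4.8e-05 by limma), and the groups lay far apart. Map3k1, an upstream kinase of the JNK pathway, fell 1.65-fold (adjusted p = 0.00651), while Map2k4, which phosphorylates JNK, rose 1.67-fold (adjusted p = 0.00976). The number of kinase genes that fell was 1 in place of 2 when any 1 of DKO 1, DKO 2 or the 4 control arrays was left out.

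Inhibitors of MAP kinase signalling included genes that ERK itself induces. Of 13 listed, 12 were on the array and 7 tested, of which 1 rose, 2 fell and 4 did not pass (median log2 difference -0.57). Dusp6, the phosphatase that removes phosphate from ERK, read 8.54, 9.16, 9.73 and 8.23 in DKO, against 10.50, 10.04, 9.72 and 10.08 in control, with DKO 3 and control 3 side by side. It fell 2.25-fold (log2 difference -1.17 with an SE of 0.30, adjusted p = 0.018 by limma), and its other probe fell as well (log2 difference -1.17, adjusted p = 0.0259). Dusp7 fell 2.08-fold (adjusted p = 0.0184), although its groups overlapped, with 8.10 on DKO 2 and 7.96 on control 3. Dusp16, a JNK phosphatase, rose 1.89-fold by its brighter probe (adjusted p = 0.00709), while its other probe differed by 0.32 and did not pass (adjusted p = 0.169). The brighter probe was detected on 4 DKO and 2 control arrays, so the control level lay near background and the fold is uncertain. The number that rose was 0 with arrays aligned by medians, the authors' processed values, or detection at p under 0.01 on every array. Without control 1 the number that fell was 0, without control 2 it was 1 and without DKO 3 it was 4.

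Of 13 other immediate-early genes, all were on the array and 7 were tested, of which 1 rose, 2 fell and 4 did not pass (median log2 difference -0.42). Zfp36l1, an RNA-binding protein that promotes the decay of AU-rich messages, read 9.28, 8.87, 9.43 and 8.91 in DKO, against 7.55, 7.76, 7.31 and 7.53 in control. It rose 3.01-fold (log2 difference 1.59 with an SE of 0.17, adjusted p = 0.000161 by limma), and its other probe rose too (1.39, adjusted p = 0.00343). Its relative Zfp36 went the other way and fell 1.84-fold (adjusted p = 0.0251), although its groups overlapped, with 8.75 on DKO 4 and 8.72 on control 3. Klf2, a Krüppel-like factor, fell 2.10-fold (adjusted p = 0.0109). Egr1, a classic immediate-early factor, differed by -0.42 (adjusted p = 0.27), and Ier2 by -0.26 (adjusted p = 0.435). The number that fell was 1 without DKO 1, control 1 or control 2. Srf, which binds the CArG box with its cofactors, was the 1 tested gene of the 8 listed in its group and differed by 0.42 (adjusted p = 0.076), and its other probe by 0.68 (adjusted p = 0.152).

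The controls differed among themselves in these genes. Control 3 had the lowest value of the 4 control arrays for all 5 tested Jun and Fos members and for all 7 tested immediate-early genes outside the family, as it did for 31.4% of all tested genes. Control 1 had the highest for 3 of the 5 members and 6 of the 7 others, against 25.2% of all tested genes. Batf, the other tested member, was lowest on control 4 (7.88), with 8.14 on control 3. Egr1 read 7.01, 6.19, 5.75 and 6.52 on control 1 to control 4, and Zfp36 read 9.96, 9.58, 8.72 and 9.23. This ordering was noticed after the values had been seen and was not tested. The difference of Fos was -1.01 without control 1 and -1.49 without control 3, past the threshold in both.

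Of 11 listed regulators of Jun protein stability, 8 were on the array and 6 tested, of which 1 rose and 2 passed as lower, 1 of them (Det1) a gene that entered the test only through the control arrays. Cops5, which binds Jun and is part of the COP9 signalosome, rose 1.40-fold (adjusted p = 0.0324), as did its other probe (log2 difference 0.45, adjusted p = 0.0243). Fbxw7, the ubiquitin ligase subunit that marks Jun for degradation, fell 1.44-fold (adjusted p = 0.0458). Det1, of the ligase that also holds Cop1, was detected on 0 DKO and 4 control arrays, so its adjusted p of 0.0468 does not support a fall. It read 5.07 on DKO 4 and 5.06 on control 1, so the groups overlapped, and the detection bound allows only at least 1.04-fold lower. These calls were thin: leaving out any 1 of the 8 arrays left at most 1 gene lower. The rise of Cops5 was lost without DKO 1, DKO 2 or any 1 of the 4 control arrays.

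Of 19 genes with known AP-1 sites, 17 were on the array and 13 tested, of which 0 rose, 4 fell and 9 did not pass (median log2 difference -0.15). Ccnd1, which encodes the G1 cyclin D1, averaged 6.52 in DKO and 8.15 in control, and the arrays of the groups did not overlap. It fell 3.09-fold (log2 difference -1.63 with an SE of 0.14, adjusted p = 5.75e-05 by limma), and its other probe fell by 1.65 (adjusted p = 0.000436). Lgals3, which encodes galectin-3, fell 2.06-fold (adjusted p = 0.00924), and the intermediate filament gene Vim fell 1.76-fold (adjusted p = 0.0221). Hmox1 passed as lower too (adjusted p = 0.0411), but its groups overlapped. It was detected on 1 DKO and 4 control arrays and so entered the test mainly through the control arrays. Without control 2 or control 3 the number that fell was 2, and with detection at p under 0.01 required on every array it was 3. Il1b, Timp1 and Cxcl2 were detected on 0 of the 8 arrays.

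**Figure D3:**
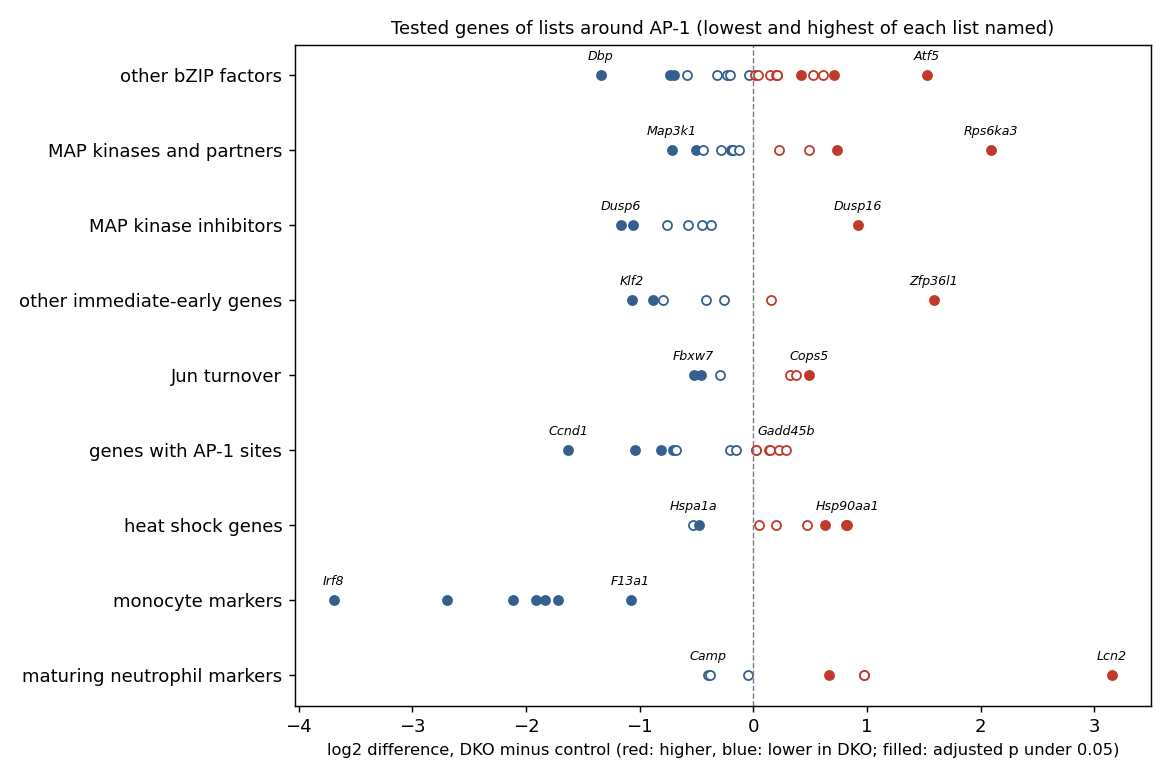
Log2 difference, DKO minus control (horizontal axis), of each tested gene of 9 lists around AP-1 and of other cell states, red where higher and blue where lower in DKO, filled where the adjusted p was under 0.05. The lowest and highest gene of each list are named, the filled point beside Fbxw7 is Det1, which was detected on no DKO array, and all 7 tested monocyte markers lie left of 0, from Irf8 at -3.69 to F13a1 at -1.08.

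Whole-array facts and marker genes bear on these values. The DKO arrays detected 9774 to 11103 probes and the control arrays 10740 to 11227, and mean raw intensities were 380.2 to 621.9 in DKO and 604.8 to 736.1 in control (exact two-sided permutation test p = 0.114 for each measure, where 0.0286 is the smallest possible). Nabp2 fell by its brighter probe (log2 difference -1.68, limma adjusted p = 0.00198) while its other probe differed by -0.41 and did not pass (adjusted p = 0.355). The brighter probe was still detected on 4 DKO arrays, at 6.42 to 7.45 against 8.13 to 9.10 in control, and the other on 3. Nabp1 was detected on 0 of the 8 arrays. All 12 GMP markers on the array were tested, 11 did not pass and Cd34 fell 2.68-fold, while 2 fell without DKO 1 or without DKO 2. Fcgr2b differed by 0.45 by its brightest probe and did not pass (adjusted p = 0.051). Its other probes differed by 0.63, which passed (adjusted p = 0.0046), and by 0.29, which did not (adjusted p = 0.243). Of 13 monocyte and macrophage markers, 8 were on the array and 7 tested, and all 7, Irf8 among them, fell. Of these, Ctss and Klf4 were detected on 1 DKO and 4 control arrays, and Adgre1 on 2 DKO and 4 control arrays. These genes thus passed the filter mainly through the control arrays. With detection at p under 0.01 required on every array, the number that fell was 3. The summed linear signal of the 8 markers on the array was 2248 to 4262 in DKO and 8123 to 10905 in control, and Ccr2 was detected on no array. Of 12 maturing neutrophil markers, 11 were on the array and 7 tested. Of these, 3 rose (1 without DKO 1 and DKO 2 together) and 0 fell. S100a9 rose by 0.66 with overlapping groups. The 4 that did not pass went both ways, with Ngp at 0.98, S100a8 at -0.04, Ltf at -0.38 and Camp at -0.40. Summed signals of the 11 were 41704 to 55086 in DKO and 35750 to 38909 in control. They weigh most on S100a8 and S100a9, the brightest of the tested probes. The sums of the GMP markers lay apart too, at 125743 to 134350 in DKO and 111658 to 125677 in control. In the mast cell and basophil list 1 of 7 tested genes fell, with sums of 4360 to 11673 in DKO and 13342 to 15334 in control. That gene, Hdc, fell 2.56-fold (adjusted p = 0.00329), and its probe was the brightest of the list, so the sums weigh most on it. The 6 that did not pass ran from -1.17 (Cpa3) to 0.24 (Fcer1a) on the log2 scale. The other Cpa3 probes differed by -1.31, which passed (adjusted p = 0.0406), and by -0.80, which did not (adjusted p = 0.149). Mmp8, of the maturing neutrophil list, was detected on no array. Of 5 tested erythroid markers 2 passed as lower, Slc4a1 (at least 1.44-fold) and Epor (at least 1.06-fold), both detected on 0 DKO and 4 control arrays and so tested only through the control arrays. Gata1 was detected on no array, and the erythroid sums were 235 to 658 in DKO and 618 to 1152 in control. Of 8 B lymphoid markers, 6 were on the array and 2 tested, and the sums were 893 to 1102 in DKO and 1520 to 1948 in control. Cd79b fell by both its probes (log2 differences of -0.77 and -0.83, adjusted p of 0.00412 and 0.00405), and Pax5 and Ms4a1 were detected on no array. Of 9 T and NK markers, 7 were on the array and 0 passed the filter, and Cd3e was detected on no array. Of 10 listed heat shock genes, 9 were on the array and 8 tested, of which 3 rose (Hsp90aa1, Hspd1 and Hspe1) and 1 fell. The other Hspd1 probe differed by 0.72 and did not pass (adjusted p = 0.135). Hsp90aa1 was 1.77-fold higher and Dnajb1 1.39-fold lower, and Hspa1a differed by -0.53 and did not pass (adjusted p = 0.177). The part of these cell types and of heat shock in the AP-1 differences was not tested, and in sorted bulk samples fewer cells of a type and less RNA per cell cannot be told apart.

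By the root mean square difference between probe-centred log2 profiles over the 8 arrays, Gngt2 (0.207) and Fcgr4 (0.249) lay closest to Junb. Both rose, with log2 differences of 1.15 and 1.04. Closest to Batf were Txnl4a (0.118) and Cacna1f (0.124), with log2 differences of 0.85 and 0.80, although 1 of the 3 other tested Txnl4a probes differed by -0.14 and did not pass (adjusted p = 0.457). Closest to Fos were Dag1 (0.201) and Fyco1 (0.266), with log2 differences of -0.95 and -1.30. The other Dag1 probe differed by -0.28 and did not pass (adjusted p = 0.419). These are descriptions of likeness over 8 arrays that fall into separate groups.

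**Figure D4:**
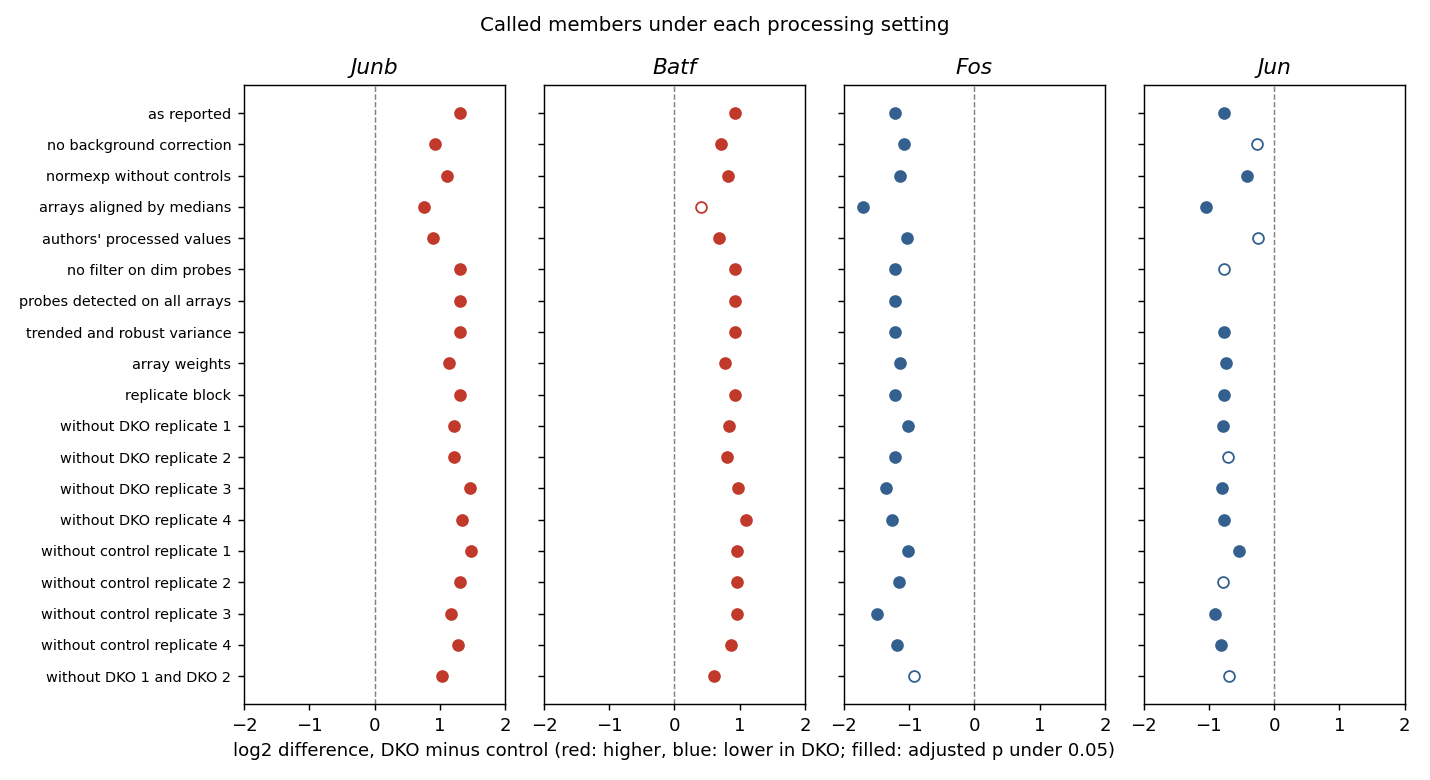
Log2 difference, DKO minus control (horizontal axes), of Junb, Batf, Fos and Jun as reported (top row) and under 18 other settings, red where higher and blue where lower in DKO, filled where the adjusted p was under 0.05. No value changes its sign, Junb is filled throughout, Batf is open with arrays aligned by medians, Fos is open without DKO 1 and DKO 2, and Jun is open in 6 settings and absent where probes had to be detected on all arrays.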

How the data were processed

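RNA from sorted GMP, 4 DKO and 4 control samples, was extracted on columns, treated with DNase and made into biotinylated cRNA, per the labels' protocols. The software named, per the submitters' processing notes, is GenomeStudio, and the scanning and any summary of beads are not stated there. A non-normalized table that the authors deposited holds linear bead intensity per probe, neither background-subtracted nor normalized by its values, with a detection p-value beside each per the file headers. Its 10 unnamed columns were empty, and 0 columns of per-sample values were left unused. The authors' deposited log2 table was an alternative. Differences between its arrays followed quantile-normalized log2 intensities (r = 0.999, slope 0.961 to 0.966), its column medians were -0.0044 to -0.0005, and its centring stays unknown.

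Probes were named through the platform annotation (1 symbol for 23978 of 25697 probes, several for 0, none for 1719), with 23962 matched to RefSeq and 0 symbols changed. Intensities were normalized with neqc (offset 16) of limma 3.58.1 in R 4.3.3. The 10856 probes detected (p under 0.05) on 4 or more arrays were fitted with lmFit and eBayes without covariates, with Benjamini-Hochberg adjustment over all of them. Genes were counted by their tested probe with the highest mean. Named are all members, Nabp1, Nabp2, Irf4, Irf8, up to 3 genes of each pathway list by smallest p, and 2 neighbours of each of 3 members. Others (Jdp2, Atf3, Egr1, Ier2, Il1b, Timp1, Cxcl2, Hmox1, Ccr2, Ctss, Klf4, Adgre1, Fcgr2b, S100a8, S100a9, Ngp, Ltf, Camp, Mmp8, Hdc, Cpa3, Fcer1a, Gata1, Cd3e, Slc4a1, Epor, Cd79b, Pax5, Ms4a1, F13a1, Dnajb1, Hspa1a) were named after their values were seen. The members and lists were chosen with earlier results of these data known. The procedure was tested on simulated data. The number of arrays limits the precision. The alternatives were other background corrections, normalization, filters, variance models, weighted arrays, a replicate block, the authors' values and leaving out arrays. No slide is given for a block. No sequence is shown for Fosl1 or Batf2.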

Additional observations from a re-analysis of the deposited data

Results flagged for a closer look

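A sample stood apart from the other 3 of its group by Dixon's 95% criterion in 6 of 28 groups of 4 values examined, and chance alone marks about 1 in 20. Batf read 7.88 on control 4, below the other controls, and its difference without that array was 0.86 (limma adjusted p = 0.0232). Batf3, not detected anywhere, read 4.33 on DKO 4 and 4.86 on control 4, and Fosl1, likewise undetected, read 4.54 on control 2. The brighter Nabp2 probe read 8.13 on control 3. The mean raw intensity of control 2 was 736.1, above the other controls.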

How the results depend on the processing

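Junb stayed higher and past the threshold under all 18 alternatives run, with log2 differences of 0.76 to 1.47. With arrays aligned by medians, 1 member rose in place of 2 and the members' median was -0.36, beside -0.43 for all tested genes, of which 1.39% rose and 23.6% fell there. The number of members that fell was 1 with the authors' processed values, uncorrected background, no filter on dim probes, or a filter for detection at p under 0.01 on all 8 arrays, each time through Jun, and 0 without DKO 1 and DKO 2. The filter for all arrays left 3 members, and their median became 0.93. Leaving out 1 array at a time gave 2 members higher throughout, 1 to 2 lower and a median of -0.32 to 0. Over these runs Jund ranged from -0.43 to 0.02 and Fosb from -0.37 to 0.14, neither past the threshold, so their signs are not settled. Jun was lost in 6 of 17 alternatives, and with no filter its log2 difference was -0.76 (adjusted p = 0.0592). Samples with the same replicate number did not all deviate together (r of 0.19, 0.03, -0.11 and 0.20). The closest control sample was the same-numbered one for DKO 1 and DKO 4, but not for DKO 2 and DKO 3. With so few samples these values cannot decide whether the numbers pair the samples. The replicate block gave 2 members higher, 2 lower and a median of -0.12, with Fos at an adjusted p of 0.043. Over all alternatives the counts of genes higher and lower were 1 to 4 and 2 to 5 for other bZIP factors, 1 to 3 and 1 to 3 for MAP kinases, and 0 to 1 and 0 to 5 for their inhibitors. They were 1 and 1 to 4 for immediate-early genes, 0 to 2 and 0 to 2 for Jun turnover, 0 and 2 to 5 for genes with AP-1 sites, and 0 to 1 and 0 for Srf. For heat shock genes they were 0 to 3 and 1, for GMP markers 0 to 2 and 1 to 2, for monocyte markers 0 and 3 to 7 and for neutrophil markers 1 to 4 and 0. Over all genes, 454 rose and 707 fell without control 2 and 499 and 777 without control 1, beside 765 and 1086 with all arrays. Causes of these shifts were not tested. Counting all probes changed nothing for the members, which have 1 probe each, and no block by slide was run. Fosl1, Batf2 and Batf3 lay at background.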
